A study of Mus musculus with 3 samples.

Results

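The genes described here are 10 members of the circadian clock, namely Clock, Npas2, Per1, Per2, Per3, Cry1, Nr1d1, Nr1d2, Dbp and Ciart, chosen by symbol among the 32227 genes counted in single-nucleus RNA sequencing of mouse dorsal root ganglia (DRG). The DRG holds the cell bodies of sensory neurons, each wrapped by satellite glial cells (SGCs), together with Schwann cells along the axons, connective tissue, vessels and immune cells. Lumbar ganglia L3 to L5 of C57BL/6 mice with no treatment or transgene were frozen on collection. Nuclei were read with PIP-seq, a droplet method that uses template particles to partition nuclei with barcoded beads, and every transcript caught on a bead carries a unique molecular identifier (UMI). There was 1 library from adult mice of 3 months and there were 2 libraries from aged mice of 21 months. The study describes the libraries as biological replicates. The number of mice in a library was not given in the sources used here, and p-values measure only the spread between these libraries.

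The labels call all 3 libraries male, whereas Xist, the RNA that silences an X chromosome in females, stood at 1414, 844 and 929 UMIs per 1000000 UMIs (CPM) in the adult, aged 1 and aged 2 libraries. Among Y-linked genes, Uty stood at 2.73, 1.00 and 0.718 CPM and Ddx3y at 20.6, 13.2 and 7.87. The Xist level went against this label in all 3 libraries, while RNA of Y-linked genes was also present. The study's description of its animals gives aged mice as female and adult mice as of both sexes. Its methods for explant cultures name both sexes at both ages. The ages used here are those of the sample labels, from which the design text of the series departs for aged mice. The hour of collection was not given in the sources used here, and with 1 adult library it cannot be told apart from age. The libraries held 69045987 to 167664164 UMIs and 2611 to 11518 barcodes with more than 1000 genes, with medians of 3269 to 4900 UMIs in these nuclei, and at most 1 kept barcode was shared between libraries. Malat1, a long RNA retained in nuclei, took 50034 CPM in the adult library against 14747 and 16136 in the aged libraries.

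In the mammalian clock, CLOCK or its relative NPAS2 pairs with BMAL1 on E-box sequences and switches on the Per and Cry genes, whose proteins return to the nucleus and silence the pair that made them. The same pair drives Nr1d1 and Nr1d2, which encode the nuclear receptors REV-ERB alpha and beta that repress Bmal1, and the outputs Dbp and Ciart. The loop runs in most tissues over about a day, so that the level of each RNA depends on the hour of sampling, and glucocorticoids can reset it.

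Sequences near transcription starts are shown first because the loop described above acts on E-boxes. Of the 10 genes, 9 (all but Per2) had promoter windows in RefSeq (GRCm38.p6), each from 250 bases before to 50 bases after a transcription start. The motifs searched on both strands were the E-box CACGTG, its variant CACGTT, the D-box TTATGTAA to which DBP and its relatives TEF and HLF bind, and TAGGTCA, to which REV-ERB and ROR receptors bind. In the lines that follow, read on the strand of the gene, capitals mark the motifs. The Ciart stretch lay at chr3:95882255-95882356 on the minus strand, the Cry1 stretch at chr10:85185097-85185145 on the minus strand, the Per1 stretch at chr11:69098771-69098800 on the plus strand and the Per3 stretch at chr4:151044804-151044882 on the minus strand.

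Ciart: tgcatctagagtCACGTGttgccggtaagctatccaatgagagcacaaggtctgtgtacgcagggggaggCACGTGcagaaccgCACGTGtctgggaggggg
Cry1: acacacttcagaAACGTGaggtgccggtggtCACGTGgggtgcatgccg
Per1: agcacccaagtcCACGTGcagggatgtgtg
Per3: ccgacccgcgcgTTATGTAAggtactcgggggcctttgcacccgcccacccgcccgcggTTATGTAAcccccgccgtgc

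Ciart held 3 E-boxes, starting 116, 58 and 44 bases before the transcription start, and Cry1 held 1 E-box beside 1 reversed copy of the variant. Per1 held 1 E-box in 1 of its 2 windows, and Per3 held 2 D-boxes and no E-box. The Per1 stretch lies before a RefSeq start but within the gene as placed by the GENCODE M21 annotation (chr11:69095217-69109960). The Nr1d1 window held the variant once, and the windows of Clock, Npas2, Nr1d2 and Dbp held none of these letters. An E-box was in the windows of 8.09% of the 27025 genes in the table, the variant in 5.44% of genes, the D-box in 1.11% and TAGGTCA in 2.97%. These are matches of letters, not binding sites.

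Nuclei were clustered without the 10 genes, and a cluster was called after a cell type, as "X-like", from marker genes. There were 3848 SGC-like nuclei, 844 like non-myelinating Schwann cells (NMSC-like), 1440 like myelinating Schwann cells (MSC-like), 8196 neuron-like, 1740 fibroblast-like, 451 endothelial-like, 717 myeloid-like and 186 lymphocyte-like nuclei, the last with B cell markers. Comparisons and orders of levels cover these 8 classes. The SGC-like cluster rested on Fabp7, Kcnj10 and Ednrb, 3 of the 6 SGC markers, and the NMSC-like cluster also passed for 3 collagen genes of the fibroblast list. The 6 SGC markers summed to 1003, 811 and 828 CPM in the adult, aged 1 and aged 2 SGC-like nuclei. They summed to 554, 683 and 456 in endothelial-like and to 624, 365 and 341 in NMSC-like nuclei, so the separation was small. The 6 NMSC markers summed to 13797, 15156 and 14246 CPM in NMSC-like nuclei and to 15395, 11285 and 11186 in SGC-like nuclei, so that these markers did not separate NMSC-like from SGC-like nuclei, whereas MSC-like nuclei lay lower at 2481, 2164 and 2545. UMIs were summed per library and class, and all levels are CPM of that sum, which compare 1 gene between classes and libraries but not 1 gene with another.

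The 3 Per genes, Nr1d1, Nr1d2 and Dbp were lower in neurons than over the remaining classes on average, Clock and Npas2 were higher, and Cry1 showed no class pattern. In a comparison of each class with the mean of the other classes (edgeR quasi-likelihood test with the library as a block and Benjamini-Hochberg adjustment over all genes), 6 genes were lower and 2 were higher in neuron-like nuclei, beside 28.9% of all genes lower and 34.4% higher. Ciart had no UMI in any lymphocyte-like sum, which leaves its contrasts without a bound, so the counts cover the other 9 genes. Of these, 7 were higher in fibroblast-like nuclei (18.7% of all genes higher), 5 in SGC-like nuclei (24.3%), 5 in endothelial-like nuclei (13.7%) and, among Schwann cells, 5 in the NMSC-like (13.6%) and 5 in the MSC-like class (19.3%). The 5 calls of the NMSC-like class all became calls of the opposite sign when nuclei were assigned one by one from marker UMIs. In lymphocyte-like nuclei 5 were lower (12.9% of all genes lower), and in myeloid-like nuclei 2 were lower (20.1%). A low level in the many neurons raises the contrast of every other class, so these counts are not independent of one another. Of the 43 calls over all classes, 26 were made without the aged 1 library.

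**Figure D1:**
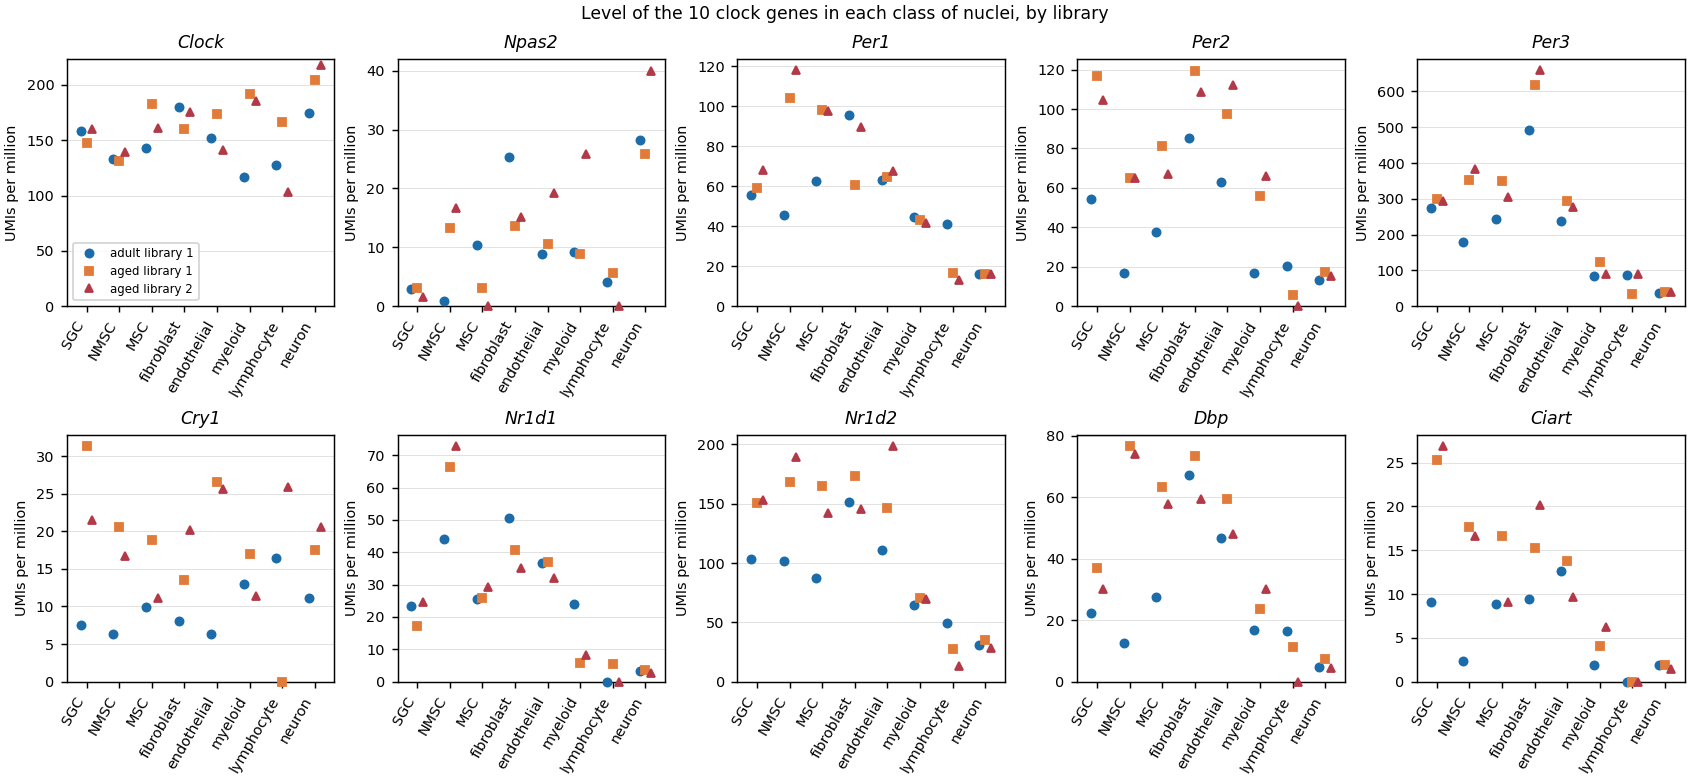
CPM of each of the 10 clock genes (panels, linear axes of their own scale) in 8 classes of nuclei, with 1 point for each of the 3 libraries. The 3 Per genes, Nr1d1, Nr1d2, Dbp and Ciart lie lower in neuron-like than in SGC-like nuclei in all 3 libraries, and Clock and Npas2 lie higher.

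Clock (chr5:76209868-76304792, minus strand, GRCm38 with the GENCODE M21 annotation) and Npas2 (chr1:39193731-39363236, plus strand) encode the alternative partners of BMAL1. Clock ranged from 174 to 218 CPM over the 3 libraries in neuron-like nuclei and from 148 to 161 in SGC-like nuclei, with ranges that overlapped between most neighbours in the order of classes. It was higher in neuron-like nuclei by 0.56 ± 0.13 on the log2 scale (SE, n = 3 libraries, edgeR adjusted p = 0.00048). The class contrasts were fitted after scaling between sums (TMM), which the CPM ranges do not have, so the 2 can differ in size. Npas2 ranged from 25.8 to 40.0 in neuron-like nuclei and from 1.61 to 3.01 in SGC-like nuclei. Its neuron contrast was 2.17 ± 0.31 (edgeR adjusted p = 1.73e-06), and it was lower in SGC-like nuclei (-1.73 ± 0.59, edgeR adjusted p = 0.0199). Next to neurons on average came fibroblast-like nuclei at 13.5 to 25.4, a range that did not reach the neuronal one. The range of myeloid-like nuclei, 8.92 to 25.9 on 41 UMIs, just met it.

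The Per genes encode the repressors that are rebuilt each cycle, and all were lower in neurons. Per1 (chr11:69095217-69109960, plus strand) ranged from 15.8 to 16.2 CPM in neuron-like nuclei, below the 55.7 to 68.2 of SGC-like nuclei, and its contrast was -1.70 ± 0.19 (edgeR adjusted p = 4.8e-08). Per2 (chr1:91415982-91459324, minus strand) ranged from 13.2 to 17.4 in neuron-like nuclei against 54.5 to 117 in SGC-like and 85.4 to 119 in fibroblast-like nuclei. Its contrasts were -1.58 ± 0.25 in neuron-like nuclei (edgeR adjusted p = 9.08e-06) and 1.33 ± 0.19 in SGC-like nuclei (edgeR adjusted p = 4.72e-06). Per3 (chr4:151003652-151044665, minus strand) overlaps Camta1 on the same strand. Fibroblast-like nuclei at 491 to 659 lay above the other 7 classes in Per3. Neuron-like nuclei lay at 35.5 to 40.3, a range that overlapped the 33.4 to 90.6 of lymphocyte-like nuclei. In mural-like nuclei, the vessel wall class that was too small to test, Per3 stood at 298, 527 and 744 on 45, 40 and 9 UMIs, values that overlapped the fibroblast range. Its contrasts were 1.87 ± 0.13 in fibroblast-like nuclei (edgeR adjusted p = 7.57e-11) and -2.35 ± 0.18 in neuron-like nuclei (edgeR adjusted p = 9.42e-11). Reads in the overlap with Camta1 may have been split by the counting.

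Cry1 (chr10:85131700-85185064, minus strand), the cryptochrome that joins PER in repression, showed no class pattern: its range of 11.1 to 20.6 CPM in neuron-like nuclei overlapped those of all other classes in the order, and no class contrast passed the test. Nr1d1 (chr11:98767932-98775333, minus strand) was highest in NMSC-like nuclei at 44.2 to 72.7, a range that met that of fibroblast-like nuclei, against 17.1 to 24.7 in SGC-like and 2.64 to 3.56 in neuron-like nuclei. Its contrast was 2.28 ± 0.22 in NMSC-like nuclei (edgeR adjusted p = 3.06e-08), against -0.64 ± 0.19 with nuclei assigned one by one (edgeR adjusted p = 0.0087), and -2.41 ± 0.54 in neuron-like nuclei (edgeR adjusted p = 0.00046). Nr1d2 (chr14:18204054-18239127, minus strand) ranged from 28.2 to 35.4 in neuron-like nuclei and from 87.8 to 199 in the glial, fibroblast-like and endothelial-like classes, whose ranges overlapped one another, with a neuron contrast of -1.53 ± 0.17 (edgeR adjusted p = 3.65e-08). Nr1d1 overlaps Thra on the opposite strand, and the use of strand in counting was not given in the sources used here.

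Among the outputs, Dbp (chr7:45705088-45710203, plus strand), a transcription factor of the PAR bZIP family, ranged from 59.4 to 73.5 CPM in fibroblast-like nuclei and from 4.36 to 7.32 in neuron-like nuclei. The neuron contrast was -2.49 ± 0.32 (edgeR adjusted p = 4.51e-07). Ciart (chr3:95878503-95882251, minus strand), a repressor of the CLOCK and BMAL1 pair, ranged from 9.04 to 26.8 in SGC-like nuclei and from 1.49 to 1.95 in neuron-like nuclei. Dbp overlaps Sphk2 and Ciart overlaps an antisense RNA, both on the opposite strand.

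Neuron-like nuclei held more RNA, with a mean of 14918 to 23390 UMIs per nucleus against 3268 to 8504 in SGC-like nuclei. As UMIs per nucleus, Per3, Nr1d1, Dbp and Ciart stayed lower in neuron-like than in SGC-like nuclei in all 3 libraries. Per1, Per2 and Nr1d2 turned in the adult library, where the neuron to SGC ratio per nucleus was 1.32 for Per1, 1.11 for Per2 and 1.35 for Nr1d2. Free RNA was read from barcodes with at most 100 UMIs, where Per1 stood at 18.8, 19.9 and 18.9 CPM and Nr1d2 at 48.4, 48.4 and 39.0. Neuron-like nuclei lay below free RNA in all 3 libraries for Per1, Nr1d1, Nr1d2, Dbp and Ciart, so these 5 genes were not enriched there over free RNA. This compares shares of UMIs. How much free RNA a nucleus held was not measured, so the part of background in these levels is not known. Neuronal Per3 was above free RNA in 1 library only (ratios of 0.576, 0.767 and 1.18 in adult, aged 1 and aged 2) and neuronal Per2 in 2. SGC-like nuclei lay above free RNA in all 3 libraries for 8 of the 10 genes, in 2 libraries for Cry1 and in none for Npas2. With nuclei assigned one by one, the NMSC-like contrasts of Per1 (-0.49, edgeR adjusted p = 0.0156), Per3 (-1.07, 5.73e-06), Nr1d1 (-0.64), Nr1d2 (-0.74, 0.00202) and Dbp (-1.52, 2.82e-05) turned and passed as lower.

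Neurons were not alike in these genes. Of the neuron-like nuclei, 1961 were called like Mrgprd non-peptidergic nociceptors (NP), 1582 like peptidergic nociceptors (PEP), 1891 like neurofilament neurons (NF), 848 like Th low-threshold mechanoreceptors (TH), 262 like Trpm8 cold-sensing neurons (TRPM8) and 163 like Sst neurons (SST), all from markers. Npas2 stood apart: over the 3 libraries it ranged from 79.5 to 94.0 CPM in TH-like and from 46.1 to 73.7 in NP-like nuclei, whereas every other subtype stayed at or below 11.7. The test of each subtype against the mean of the other subtypes was added after these values had been seen and describes them. It gave Npas2 contrasts of 3.54 ± 0.17 in TH-like (edgeR adjusted p = 9.8e-12) and 2.76 ± 0.17 in NP-like nuclei (edgeR adjusted p = 3.61e-10). Of the 10 genes it called 9 in NF-like (49.3% of all genes), 6 in NP-like (33.4%), 2 in PEP-like (39.0%), 4 in SST-like (26.2%), 8 in TH-like (34.0%) and 5 in TRPM8-like nuclei (23.3%).

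Clock followed the same order at its top, from 269.9 to 296 CPM in TH-like nuclei, a range that no other subtype reached (0.75 ± 0.08, edgeR adjusted p = 2.75e-07). Per2 was highest in NP-like nuclei at 17.5 to 25.5 (1.53 ± 0.16, edgeR adjusted p = 3.22e-07), and the next subtype overlapped it by a narrow margin. Per3 had the opposite pattern, at 75.6 to 137 in TRPM8-like and 59.5 to 107 in SST-like nuclei, which overlapped each other, but only 27.4 to 29.0 in NP-like nuclei. Its contrasts were 1.35 ± 0.14 in TRPM8-like (edgeR adjusted p = 8.7e-07) and -0.89 ± 0.15 in NP-like nuclei (edgeR adjusted p = 8.71e-05). Nr1d2 was likewise called higher in TRPM8-like and lower in NP-like nuclei, with 47.9 to 94.5 in TRPM8-like nuclei, which overlapped SST-like nuclei at 43.4 to 55.9 and NF-like nuclei at 36.5 to 60.3 (1.19 ± 0.18, edgeR adjusted p = 4.78e-05) and 10.9 to 17.3 in NP-like nuclei (-1.55 ± 0.18, edgeR adjusted p = 1.58e-06). Cry1 was lowest in NF-like nuclei at 4.97 to 9.95 (-1.12 ± 0.14, edgeR adjusted p = 2.98e-06), and Per1 was lowest in NP-like nuclei at 9.93 to 11.3 (-0.66 ± 0.12, edgeR adjusted p = 0.000222). Nr1d1, Dbp and Ciart stayed at or below 16.2 in every subtype and library. Free RNA held Per3 at 61.6, 49.7 and 34.2 CPM and Cry1 at 9.38, 10.2 and 14.1. The low levels named here, of Per1, Per3 and Nr1d2 in NP-like and of Cry1 in NF-like nuclei, lay below free RNA in all 3 libraries. They were thus not enriched over free RNA, and the part of background in them is not known.

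**Figure D2:**
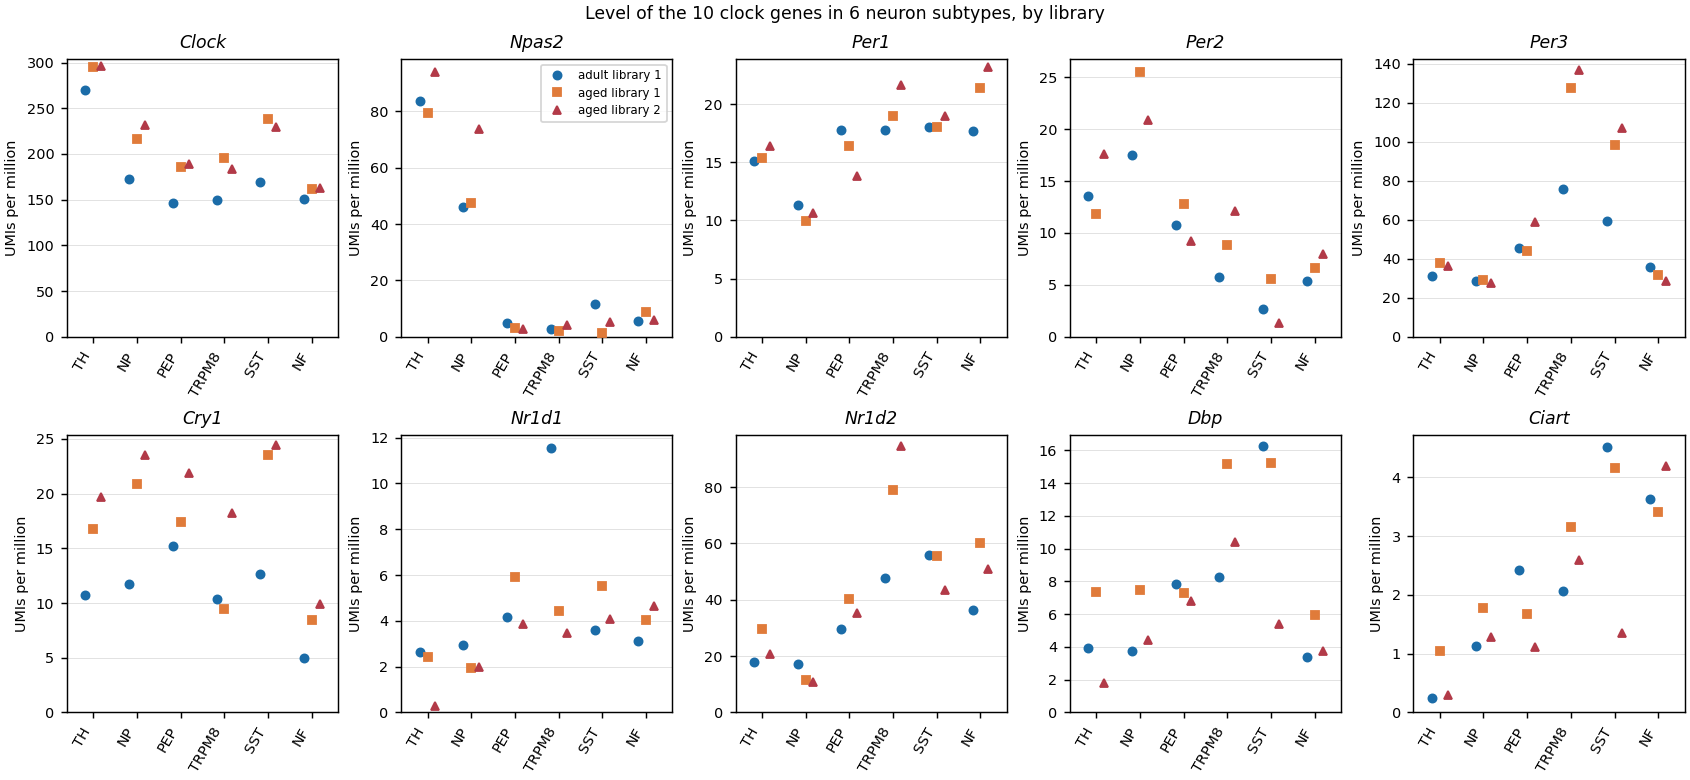
CPM of the clock genes (panels, linear axes of their own scale) in 6 neuron subtypes, with 1 point for each of the 3 libraries. Npas2 is high in TH-like and NP-like nuclei, and Per3 and Nr1d2 are high in TRPM8-like and low in NP-like nuclei.

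Several clock genes were higher in glia of the aged libraries, and none of the 10 passed as lower in any class once genes of low counts had been filtered out. Of 70 pairs of gene and class that could be tested (edgeR quasi-likelihood test on sums per library and class, with TMM scaling), 14 were higher in aged mice and 0 were lower, while at an unadjusted p under 0.05 there were 3 lower and 22 higher. The 14 calls fell on 8 genes and 4 of 8 classes. Among these 14, Npas2 and Ciart in NMSC-like nuclei met the low-count filter only through the aged libraries. Had they been low there, they would not have been tested. With them, NMSC-like nuclei had 6 of 10 genes higher, beside 7.01% of all genes called in either direction. Of these 6 calls DESeq2 kept that of Dbp, thinning kept none of the 4 it could test, and one by one assignment kept none. SGC-like nuclei had 4 of 9 (15.6%), MSC-like nuclei 3 of 10 (8.42%) and myeloid-like nuclei 1 of 9 (11.7%), which is near the background. No gene passed in neuron-like nuclei (0 of 10, 9.07%), fibroblast-like (0 of 10, 4.94%), endothelial-like (0 of 10, 1.91%) or lymphocyte-like nuclei (0 of 2, 1.91%). At an unadjusted p under 0.05 these classes had 1, 1, 1 and 0 genes, and DESeq2 called none in them. The adult group is 1 library, so the spread came from the aged pair with 1 residual degree of freedom, and the adult library was assumed to vary like it. The edgeR fit shares this spread over all genes of a class. Its small p-values therefore rest mostly on the shared spread, not on the aged pair of a single gene.

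The median log2 difference of the tested clock genes was 1.26 for the NMSC-like class, 0.54 for the MSC-like, 0.40 for the SGC-like and 0.06 for the neuron-like class, and the median over all genes tested was at most 0.01 in each of these classes. The NMSC-like median includes Npas2 and Ciart, which met the low-count filter only through the aged libraries. TMM scaling moved a difference away from the plain ratio of CPM, which was higher by 0.15 on the log2 scale for the SGC-like class, 0.16 for the NMSC-like, 0.10 for the MSC-like and 0.12 for the neuron-like class. Per2 had calls in the most classes among the clock genes, with both aged libraries above the adult library in 7 of 7 classes tested and a call in 4. Per3 lay above in 7 of 8 classes with a call in 1. Among other clock pathway genes, Btrc and Fbxw11 did so in 7 of 8 without a call, whereas Gsk3b did so in 1 of 8. These positions are of plain CPM, without TMM scaling. In SGC-like nuclei, where Per3 counts as above, its fitted difference was -0.037 ± 0.114. All classes come from the same 3 libraries, so counts of classes are not independent. The share of all genes above in every class tested was not counted. A call in 3 or more classes was made for 1.31% of the 11357 genes tested in at least 6 classes.

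**Figure D3:**
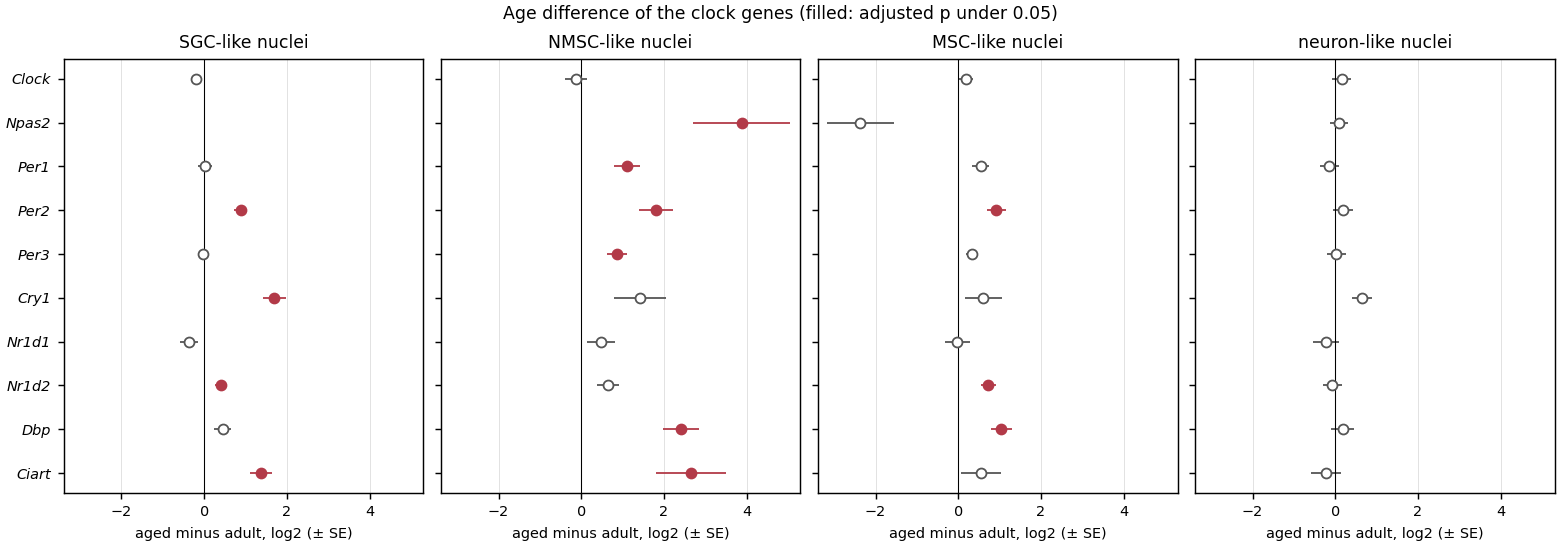
Aged minus adult difference (log2, x axis) of each clock gene in SGC-like, NMSC-like, MSC-like and neuron-like nuclei (panels), with bars of 1 SE from the fit to 3 libraries. Filled points, 13 in all, passed an adjusted p of 0.05 and lie above 0, and the neuron panel has none.

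In SGC-like nuclei 4 genes rose, among them Cry1 and Per2 of the repressor complex. Cry1 stood at 7.52, 31.3 and 21.5 CPM in the adult, aged 1 and aged 2 libraries, so both aged libraries were above the adult one (1.70 ± 0.27, edgeR adjusted p = 1.31e-08), whose level was below the free RNA level of 9.38 CPM. SGC-like nuclei with Cry1 made up 2.37%, 16.6% and 13.7% of the class, and 0.778%, 3.13% and 0.457% with each nucleus thinned to 1000 UMIs. The thinned shares of the aged libraries lay on both sides of the adult one, the lowest being 1 of 219 nuclei, so no order is read from them. Per2 stood at 54.5, 117 and 105, again without overlap (0.88 ± 0.15, edgeR adjusted p = 1.58e-07). Ciart stood at 9.04, 25.3 and 26.8 (1.37 ± 0.26, edgeR adjusted p = 6.16e-06). Cry1 and Ciart held E-boxes in the sequences shown above, as did Per1, which did not pass. The window of Nr1d2, which passed, held none of the motifs searched, and Per2 had no window. Nr1d2 rose less, from 104 to 151 and 153 (0.40 ± 0.13, edgeR adjusted p = 0.0209). The others did not pass: Per1 stood at 55.7, 58.9 and 68.2, Per3 at 275, 300.1 and 294, Clock at 158, 148 and 161, Nr1d1 at 23.4, 17.1 and 24.7, and Dbp at 22.5, 37.0 and 30.1, where the Dbp difference was 0.45 ± 0.20 (edgeR adjusted p = 0.123). The SGC-like sums differed in depth and in other RNAs too, with a mean of 3268 UMIs per nucleus in the adult library against 8013 and 8504, Malat1 at 91847 CPM against 24608 and 25175, and the 7 neuron markers summing to 604 against 744 and 728. Their part in the result was not tested.

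NMSC-like nuclei had the largest median difference of the 8 classes. The output Dbp stood at 12.6, 76.6 and 74.3 CPM (2.41 ± 0.43, edgeR adjusted p = 1.58e-06). Per2 stood at 16.6, 64.8 and 65.2 (1.80 ± 0.42, edgeR adjusted p = 0.000588), Per1 at 45.8, 104 and 118 (1.11 ± 0.32, edgeR adjusted p = 0.0122) and Per3 at 180.0, 351 and 383 (0.87 ± 0.24, edgeR adjusted p = 0.00612). In each of these 4 genes both aged libraries lay above the adult one, although adult Dbp was below its free RNA level of 16.5 CPM. With nuclei assigned one by one, the differences were -0.17 for Per3 and -0.045 for Npas2, and none of the 6 genes passed. Ciart and Npas2 also passed (edgeR adjusted p = 0.0277 and 0.0178), on 3, 24 and 11 UMIs and on 1, 18 and 11 UMIs. These 2 genes met the low-count filter only through the aged libraries, and they count among the 6 calls and in the median of this class. Pooling the aged libraries, the ratio to the adult library was 7.33 (95% exact interval 2.31 to 37.2) for Ciart and 18.2 (3.02 to 744) for Npas2, which cover counting error only. The adult levels of both genes, 0.789 CPM for Npas2 and 2.37 for Ciart, were below their free RNA levels of 16.7 and 2.85 CPM. Not passing were Nr1d2 at 102, 168 and 189, Nr1d1 at 44.2, 66.3 and 72.7, Clock at 133, 131 and 139, and Cry1, which had too few UMIs to list. Mean UMIs per nucleus were 2906, 4973 and 4888, and the 7 neuron markers summed to 1053, 902 and 658 CPM. Markers of other cell types were higher in both aged libraries, the 6 fibroblast markers at 448, 1277 and 1181 CPM, the 6 MSC markers at 194, 384 and 283, and the 3 cycling markers at 7.89, 68.5 and 71.2. The 6 SGC markers were lower, at 624, 365 and 341, as was Malat1 at 72163, 19555 and 20452. Fibroblast-like nuclei held more of each of the 6 called genes than the adult NMSC-like nuclei in all 3 libraries. The same held for Clock, Cry1 and Nr1d2, which did not pass, but not for Nr1d1. The part of these markers in the result was not tested.

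MSC-like nuclei shared part of this pattern. Dbp stood at 27.6, 63.3 and 57.8 CPM (1.04 ± 0.25, edgeR adjusted p = 0.00834), Nr1d2 at 87.8, 165 and 142 (0.72 ± 0.18, edgeR adjusted p = 0.00938) and Per2 at 37.5, 81.3 and 66.9 (0.91 ± 0.23, edgeR adjusted p = 0.0112), all without overlap. Per1 at 62.6, 97.9 and 97.3 (0.54 ± 0.20, edgeR adjusted p = 0.096) and Per3 at 244, 349 and 306 (0.34 ± 0.15, edgeR adjusted p = 0.176) were above in both aged libraries and did not pass. Clock stood at 143, 183 and 161, Cry1 at 9.87, 18.8 and 11.1, Nr1d1 at 25.6, 26.0 and 29.4, and Ciart at 8.88, 16.6 and 9.12, none past the test. Npas2 had 21, 8 and 0 UMIs (-2.37 ± 0.81, edgeR adjusted p = 0.0741), and without the filter on low counts it passed as lower (-2.35 ± 0.68, edgeR adjusted p = 0.0144). The MSC-like sums also differed in mean UMIs per nucleus, at 3095, 4563 and 4860, and in Malat1, at 63838, 20298 and 20290 CPM. The 6 SGC markers summed to 374, 236 and 183 CPM, the 7 neuron markers to 1202, 962 and 867, the 6 B lymphocyte markers to 66.6, 7.53 and 9.12, and the 6 MSC markers to 4703, 4854 and 4971. Their part in the result was not tested.

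In myeloid-like nuclei Per2 stood at 16.7, 55.9 and 66.2 CPM, on 9, 69 and 64 UMIs (1.88 ± 0.42, edgeR adjusted p = 0.021). The call was lost under DESeq2, thinning, one by one assignment and in nuclei with more than 2000 genes. Clock stood at 117, 192 and 185 (0.72 ± 0.22, edgeR adjusted p = 0.0712). Per1 stood at 44.5, 43.0 and 41.4, Per3 at 83.5, 123 and 91.1, Nr1d2 at 64.9, 70.5 and 69.3, and Dbp at 16.7, 23.5 and 30.01. Apart from Per2, no gene of this class passed. Markers of other cell types were lower in both aged libraries of this class, the 7 neuron markers at 1439, 601 and 542 CPM, the 6 B lymphocyte markers at 401, 114 and 82.8, and the 6 T lymphocyte markers at 685, 436 and 256, while the 6 myeloid markers stood at 978, 1274 and 1065. Their part in the Per2 difference was not tested.

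Neuron-like nuclei had by far the most UMIs for these genes and no call. Their fit was not the more precise, with SEs of 0.24 for Per2, 0.22 for Clock and 0.22 for Nr1d2 against 0.15, 0.13 and 0.13 in SGC-like nuclei. Cry1 came nearest, at 11.1, 17.4 and 20.6 CPM (0.65 ± 0.24, edgeR adjusted p = 0.0656). Per2 stood at 13.2, 17.4 and 15.3 (0.18 ± 0.24), Dbp at 4.75, 7.32 and 4.36 (0.18 ± 0.28), and Ciart at 1.86, 1.95 and 1.49 (-0.22 ± 0.36). Clock stood at 174, 204 and 218, Npas2 at 28.3, 25.8 and 40.0, Per1 at 16.2, 15.8 and 16.04, Per3 at 35.5, 38.1 and 40.3, Nr1d1 at 3.35, 3.56 and 2.64, and Nr1d2 at 30.6, 35.4 and 28.2. The share of neuron-like nuclei in clusters of low Malat1 was 17.2% in adult, 36.7% in aged 1 and 28.1% in aged 2.

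Within neurons, the NP-like nuclei had the only calls, 1 higher and 1 lower (9.24% of all genes called). Cry1 stood at 11.7, 20.9 and 23.5 CPM (0.79 ± 0.25, edgeR adjusted p = 0.0201) and Nr1d2 at 17.3, 11.4 and 10.9 (-0.76 ± 0.26, edgeR adjusted p = 0.0363), where Nr1d2 lay below free RNA at 48.4, 48.4 and 39.0 CPM in all 3 libraries. The clusters that made up the NP-like nuclei held both ages in different shares. A cluster of low Malat1 gave 105 of the 1011 adult nuclei but 210 of 575 and 101 of 375 aged ones, and another gave 463, 130 and 72. Both calls were also made with the low-Malat1 clusters left out, but neither was made by DESeq2, thinning left Cry1 untestable and Nr1d2 without a call, and without the filter on low counts or in nuclei with more than 2000 genes Cry1 alone passed. In NF-like nuclei Nr1d2 stood at 36.5, 60.3 and 50.8, a difference of the opposite sign that did not pass (0.43 ± 0.18, edgeR adjusted p = 0.0771), and the difference between these subtypes was not tested. The other subtypes had 0 calls, beside 18.5% of all genes in NF-like, 1.43% in PEP-like, 2.49% in SST-like, 2.36% in TH-like and 1.22% in TRPM8-like nuclei. At an unadjusted p under 0.05 there were 3 genes in NF-like, 3 in TRPM8-like and 0 in the other subtypes, and DESeq2 called none. Npas2 in TH-like nuclei, where its level was highest, stood at 83.7, 79.5 and 94.0, and in NP-like nuclei at 46.1, 47.4 and 73.7, with no call in either.

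Fibroblast-like nuclei, which had the highest Per3 of the 8 classes, gave no call. Per3 stood at 491, 617 and 659 CPM (0.29 ± 0.19), Per2 at 85.4, 119 and 109 (0.33 ± 0.27), and Npas2 at 25.4, 13.5 and 15.1 (-0.92 ± 0.42, edgeR adjusted p = 0.271). Clock stood at 179.8, 161 and 175, Per1 at 95.7, 60.6 and 89.6, Cry1 at 8.11, 13.5 and 20.1, Nr1d1 at 50.6, 40.6 and 35.2, Nr1d2 at 152, 173 and 146, Dbp at 67.3, 73.5 and 59.4, and Ciart at 9.46, 15.3 and 20.1. In endothelial-like nuclei Per2 stood at 63.1, 97.6 and 112 and Nr1d2 at 111, 146 and 199, with differences of 0.66 ± 0.40 and 0.56 ± 0.38. The other listed endothelial values were 152, 174 and 141 for Clock, 63.1, 64.7 and 67.4 for Per1, 239, 295 and 276 for Per3, 36.6, 37.1 and 32.1 for Nr1d1, and 46.7, 59.4 and 48.1 for Dbp. In lymphocyte-like nuclei Clock alone had enough UMIs to list, at 128, 167 and 104.

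The age differences in SGC-like and neuron-like nuclei were set against each other with a test of the interaction of class and age, which called 1 of the 10 genes beside 1.36% of all genes. Ciart passed, with a difference of 1.57 ± 0.45 (edgeR adjusted p = 0.035), although its neuronal level was below free RNA, and the call was lost under DESeq2, thinning and one by one assignment. Cry1 differed by 1.04 ± 0.32 (edgeR adjusted p = 0.0636), Per2 by 0.67 ± 0.24 (edgeR adjusted p = 0.201) and Nr1d2 by 0.45 ± 0.24 (edgeR adjusted p = 0.637), so that for these genes the classes were not shown to differ. Summed over all kept nuclei, where the mix of classes also counts, 1 of 10 genes passed beside 12.5% of all genes: Cry1 stood at 10.3, 18.2 and 19.9 CPM (0.75 ± 0.23, edgeR adjusted p = 0.012).

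The calls depended on the test, on thinning and on the assignment of nuclei. DESeq2's Wald test kept 2 of the 14 calls, Per2 in SGC-like (adjusted p = 0.03) and Dbp in NMSC-like nuclei (adjusted p = 0.0286). Thinning every nucleus to 1000 UMIs left 12 of the 14 testable and kept 2, both of Per2, in SGC-like (edgeR adjusted p = 2.35e-05) and MSC-like nuclei (edgeR adjusted p = 0.0177), while the 10 calls lost had differences of 0.29 to 2.01, all above 0. Thinning evens the weight of nuclei and also discards UMIs, and calls over all genes fell from 2208 to 421 in SGC-like and from 854 to 1 in NMSC-like nuclei. The part of each was not tested. Assigning nuclei one by one kept 5, those of Cry1 and Ciart in SGC-like and of Per2, Nr1d2 and Dbp in MSC-like nuclei.

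Other genes of the clock, from a list of 20, placed the 10 in their pathway. In SGC-like nuclei 3 of 18 tested were higher and 1 was lower, a share near the 15.6% of all genes called there, with a median log2 difference of 0.14. Bmal1 (older symbol Arntl), the obligate partner of CLOCK, was the one that fell, from 35.0 CPM to 14.7 and 15.6 (-1.37 ± 0.22, edgeR adjusted p = 4.03e-08), and it also fell in MSC-like nuclei, from 42.4 to 10.5 and 9.12 (-2.17 ± 0.31, edgeR adjusted p = 3.64e-05). In NMSC-like nuclei it stood at 45.8, 19.9 and 60.6, so that 1 aged library was below and 1 was above the adult one. Hlf and Tef, relatives of Dbp, rose in SGC-like nuclei, Hlf from 10.3 to 27.4 and 25.8 (1.22 ± 0.25, edgeR adjusted p = 3.6e-05) and Tef from 162 to 233 and 249 (0.42 ± 0.12, edgeR adjusted p = 0.00605), and Cry2, the second cryptochrome, rose from 61.0 to 89.0 and 91.8 (0.41 ± 0.15, edgeR adjusted p = 0.0433).

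Where REV-ERB and ROR receptors act on Bmal1, the second of its 2 RefSeq windows held 1 TAGGTCA, starting 31 bases after the transcription start, in the stretch chr7:113207532-113207556 on the plus strand, with the motif in capitals.

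Arntl: ggcagaaagTAGGTCAgggacggag

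Of the 20 genes, 2 were higher in NMSC-like nuclei (Tef and Hlf, of 18 tested, beside 7.01% of all genes), 1 was higher and 1 lower in MSC-like (Cry2 and Bmal1, of 18, beside 8.42%) and 1 was higher in fibroblast-like nuclei (Rora, of 18, beside 4.94%). In neuron-like nuclei 1 of 20 was lower (9.07% of all genes called), Rorb at 2.26, 1.22 and 0.924 CPM (-1.18 ± 0.37, edgeR adjusted p = 0.0208), and none passed in the endothelial-like and lymphocyte-like classes.

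**Figure D4:**
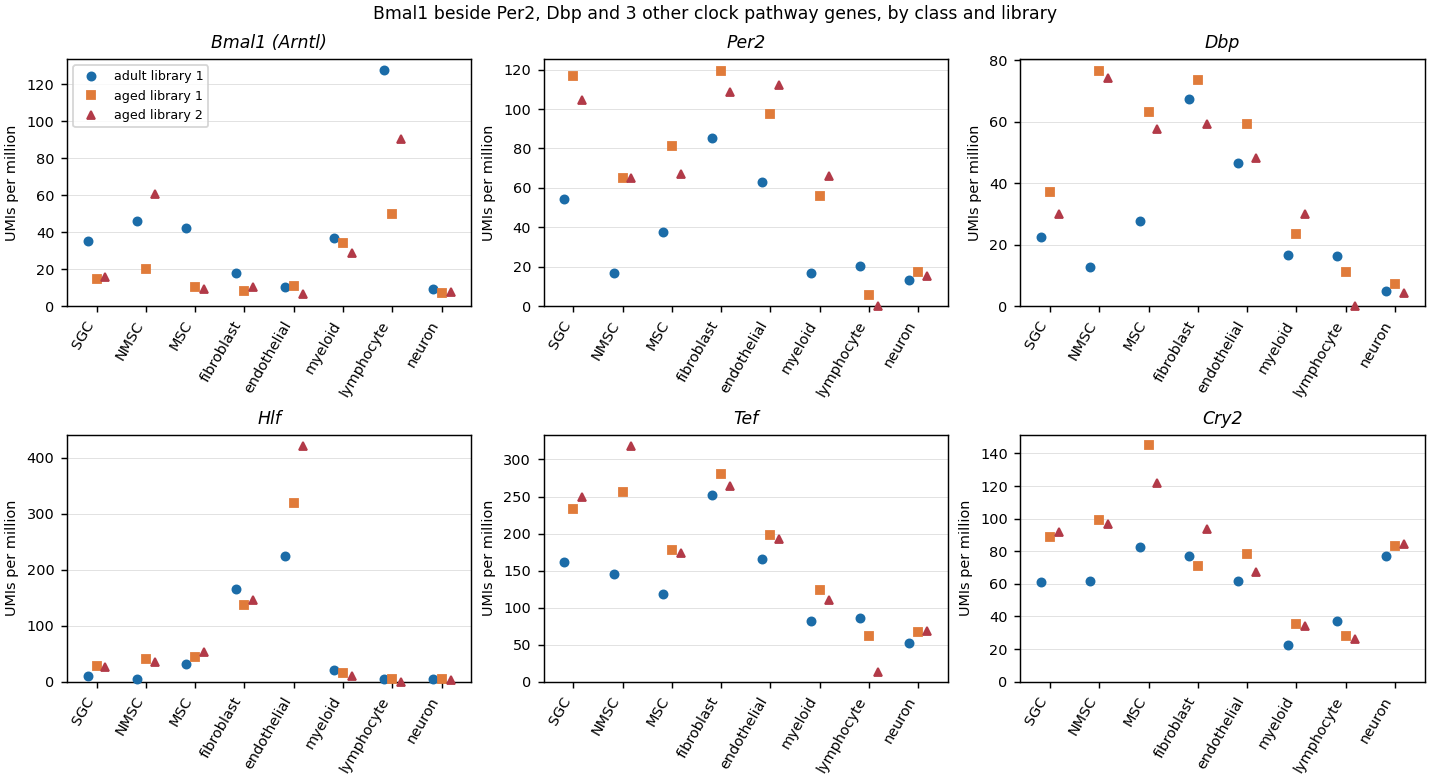
CPM (y axes, linear) of Bmal1, Per2, Dbp, Hlf, Tef and Cry2 in 8 classes, with 1 point for each of the 3 libraries. In SGC-like nuclei both aged libraries lie below the adult one for Bmal1 and above it for the other 5 genes.

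Glucocorticoid-inducible genes, a list of 10 that shares no gene with the clock list, moved in both directions in SGC-like nuclei, with 3 higher and 4 lower (15.6% of all genes called) and a median of -0.45. Fkbp5, a chaperone of the glucocorticoid receptor, rose from 46.9 to 89.0 and 96.6 CPM (0.82 ± 0.16, edgeR adjusted p = 5.02e-06), Zbtb16 from 121 to 229 and 199 and Tsc22d3 from 38.4 to 66.5 and 60.7. Ddit4 fell from 109 to 51.1 and 79.5, Mt1 from 74.3 to 48.1 and 56.9, Mt2 from 39.7 to 20.4 and 18.8, and Cdkn1a from 16.1 to 8.42 and 9.13. In neuron-like nuclei 1 of 10 was lower (9.07% of all genes called), Cdkn1a at 26.1, 19.2 and 17.4. Fibroblast-like nuclei had 5 of 10 lower and 0 higher (4.94% of all genes called). MSC-like nuclei had 1 higher and 2 lower of 10 (8.42%), myeloid-like nuclei 1 higher and 4 lower of 10 (11.7%), and lymphocyte-like nuclei 1 lower of 5 (1.91%). NMSC-like nuclei had 0 of 10 by edgeR (7.01%), with 2 at an unadjusted p under 0.05, and endothelial-like nuclei 0 of 10 (1.91%), with 4. Immediate early genes, a list of 12 that respond to stimulation and tissue handling, had 2 of 8 lower in SGC-like nuclei (15.6% of all genes called), Egr1 at 15.0, 2.41 and 5.91 and Egr3 at 48.5, 15.6 and 16.1, and 1 higher and 1 lower of 12 in neuron-like nuclei (9.07%), Atf3 at 3.09, 18.1 and 8.72 and Egr3 at 1.32, 0.610 and 0.330. Their part in the clock gene differences was not tested.

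Across the 24 sums of class and library, with 13639 genes compared by Pearson's correlation of log2 levels, the nearest gene was of the pathway for 2 of the 10 clock genes and outside it for 8. Tef was nearest to both Per2 (r = 0.933) and Dbp (r = 0.939), and Nr1d2 was second to Per1 (r = 0.941). Outside the pathway, Ikbip was nearest to Per3 (r = 0.957), Kank2 to Nr1d2 (r = 0.965), Wwc2 to Per1 (r = 0.942), Trip6 to Nr1d1 (r = 0.930) and Pkd2 to Ciart (r = 0.922). Npas2 (Plxna4, r = 0.791), Clock (Gm37529, r = 0.839) and Cry1 (Mmadhc, r = 0.850) had no neighbour as close. Sums of a library share its depth and sums of a class share its cells, so these values describe the 24 sums.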

How the data were processed

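Lumbar DRG nuclei of 1 adult and 2 aged libraries, grouped by the labels' age, were counted by the authors with the Pipseeker software, and the deposited matrices hold raw UMI counts per gene and barcode on mm10. The 3 libraries had 69045987 to 167664164 UMIs. Barcodes with more than 1000 genes were kept, integrated by age and clustered with Seurat 5.3.0 (30 components, resolution 0.8) on features that excluded the 10 genes. A cluster needed 3 markers of 1 cell type. Mixed, mitochondrial and unnamed clusters, and mural and erythroid classes with under 20 nuclei in a library, were not tested, and no doublet caller was run.

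Counts were summed per library and class and tested with edgeR 4.0.16 (TMM, filterByExpr, quasi-likelihood, Benjamini-Hochberg over all genes, threshold 0.05) in R 4.3.3. DESeq2 1.42.0, other scaling, filters, thinning and class assignments were tried. The scripts were tested on simulated data. All 10 genes are named, with library values where a class held 50 or more UMIs, and listed pathway genes where they passed in SGC-like or neuron-like nuclei. The pathway list in myeloid-like nuclei is not reported here. The genes and lists were chosen with earlier results of these data known, and the thresholds for naming clusters after the clusters had been seen. Positions are from GENCODE M21 and promoters from RefSeq, and upstream settings beyond these were not given in the sources used here.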

Additional observations from a re-analysis of the deposited data

Results flagged for a closer look

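The age difference of Ciart was larger in SGC-like than in neuron-like nuclei by 1.57 on the log2 scale (SE 0.45, edgeR adjusted p = 0.035, both aged libraries above the adult one in SGC-like nuclei), by the test of the interaction. Its neuronal level was below that of free RNA in all 3 libraries, and the gene no longer passed under DESeq2, thinning or one by one assignment.

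For 7 genes both aged libraries lay above the adult library in some groups and below it in others. These differences were not tested, and the share of all genes with both directions was not counted. The positions are of plain CPM, and some fitted differences after TMM scaling had the other sign. Clock in NF-like nuclei, for example, counts as above with a fitted difference of -0.080. Nothing particular to the clock genes is read from these counts. The groups counted are the 7 tested classes other than neurons and the 6 neuron subtypes, where the gene had 50 or more UMIs. Clock was below in 1 and above in 8, Npas2 below in 2 and above in 2, Per1 below in 4 and above in 7, and Per3 below in 1 and above in 9. Nr1d1 was below in 2 and above in 3, Nr1d2 below in 2 and above in 9, and Dbp below in 1 and above in 8.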

How the results depend on the processing

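Alternatives were tried on the counts of calls. Of the age differences in classes, where 14 were called, DESeq2 called 2, thinning to 1000 UMIs 2, nuclei with more than 2000 genes 8 (in 7 classes) and nuclei assigned one by one 5, and the other tested settings called 13 to 16, of which 1, Npas2 in MSC-like nuclei without the filter on low counts, was lower. Leaving out 1 aged library gave 12 to 14 values above 0, with no test. In neuron subtypes, where 2 were called, DESeq2 and thinning called 0, no filter and more than 2000 genes called 1 each, and integration by library called 3 in 5 subtypes, since PEP-like nuclei could not be fitted. For the class contrasts, where 43 were called, leaving out 1 library gave 26 to 45, more than 2000 genes 33 (in 7 classes in place of 8), one by one assignment 50 (in 10 classes) and the other settings 35 to 47. For the interaction, where 1 gene passed, DESeq2 size factors and leaving out low-Malat1 clusters (chosen after seeing the data) gave 2, and DESeq2, thinning and one by one assignment gave 0. Over all kept nuclei, DESeq2 and no filter gave 0 in place of 1. DESeq2 called fewer of all genes too, 326 against 2208 in SGC-like, 152 against 854 in NMSC-like, 162 against 1145 in MSC-like and 548 against 1982 in neuron-like nuclei. After thinning, 421 of 7976 genes were called in SGC-like and 1 of 7099 in NMSC-like nuclei.

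Only assignment one by one reversed a value. The age differences became -0.045 for Npas2 and -0.17 for Per3 in NMSC-like nuclei. The class contrasts became -0.18 for Npas2 in fibroblast-like and 0.074 for Nr1d2 in myeloid-like nuclei, and in NMSC-like nuclei 0.26 for Clock, -0.49 for Per1, -1.07 for Per3, 0.55 for Cry1, -0.64 for Nr1d1, -0.74 for Nr1d2 and -1.52 for Dbp. The cause was not tested. The replicate numbers do not link an adult library to an aged one, so no paired analysis was made. The 1 adult library and the low UMI counts of Npas2, Cry1 and Ciart in most glia limit the precision.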
